A study of Mus musculus with 8 samples.

Results

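The respiratory chain genes that the nucleus encodes were taken as every array probe whose gene symbol begins with Nduf, Sdh, Uqcr, Atp5 or one of Cox4 to Cox8, together with the cytochrome c gene Cycs and Cyc1. This gave 139 probes for 89 genes among the 45281 probes of the array. They were compared in cells sorted from the forelimbs of mouse embryos at E12.5 that lacked Bapx1 (Nkx3-2), a homeobox gene, and in cells from embryos with the gene intact. The comparison asked how these genes stood in the forelimb when Bapx1 was absent. In the null (tm4.Tlu/tm4.Tlu, 4 samples) the sequence for the green fluorescent protein EGFP directly followed the start codon of Bapx1 and ended its coding sequence. In the wildtype (4 samples), which the paper writes as heterozygous for the allele tm2.Tlu, EGFP was read from an internal ribosome entry site behind an intact Bapx1. Embryos of both genotypes had a mixed C57BL/6J;129 background, cells of both were sorted on EGFP, and each sample was hybridised to 1 array. Design and copy number of the reporter go with the genotype, so what they do to the sorting and what the loss of Bapx1 does cannot be told apart.

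The respiratory chain sits in the inner mitochondrial membrane. Complex I (NADH dehydrogenase, the Nduf genes) and complex II (succinate dehydrogenase, Sdh) pass electrons to ubiquinone, complex III (Uqcr, Cyc1) passes them to cytochrome c, and complex IV (cytochrome c oxidase, Cox) passes them to oxygen. Complex V (ATP synthase, Atp5) uses the proton gradient that the chain builds up to make ATP. Each complex except complex II mixes subunits of the nuclear and the mitochondrial genome, and a few conserved core subunits, which carry the redox centres or the catalytic sites, are surrounded by many small accessory subunits.

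Levels are log2 of normalized probe intensity, a change is the mean of the null minus the mean of the wildtype, and a gene stands for its brightest probe. A probe was kept where 4 or more of the 8 arrays had it above background, at a detection p under 0.05. Of the 139 probes 115 were kept, 112 of them above background on all 8 arrays, which left 80 of the 89 genes. Of the 24 dropped probes 20 were not above background on any array. The 9 genes without a kept probe were Ndufb11, Ndufs1, Ndufaf6, Sdha, Cox4i2, Cox6a2, Cox7b2, Cox8b and Cox8c. The symbol rule also took in the pseudogene Ndufs5-ps and 8 Ndufaf genes, whose proteins help to assemble complex I and are not part of it, and 7 of these were kept.

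Between 43.8% and 46.1% of all probes were above background on each array. Null replicates 2 and 3 stood apart from the other arrays in the mean log2 level of 3 Y-linked genes, which was 8.59, 9.24, 9.39 and 8.40 in null replicates 1 to 4, against 8.27, 8.46, 8.03 and 8.11 in wildtype replicates 1 to 4. The main results are therefore also given without those 2 arrays. That does not remove the Y-linked difference between the genotypes. Of the 3 genes, 2 had every null array above every wildtype array, and Eif2s3y passed the test (limma adjusted p = 0.037). It read 10.82, 11.35, 11.46 and 10.67 in null replicates 1 to 4, against 10.33, 10.46, 10.03 and 10.13 in wildtype replicates 1 to 4. The sorted cells carried the markers of early cartilage, and all 4 markers of that list, among them Sox9 and Col2a1, were kept. Markers of other cells in the forelimb differed between the genotypes. Of 7 kept skeletal muscle markers 6 were lower in the null, of 4 kept macrophage markers 4 and of 5 platelet and megakaryocyte markers 5.

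In the null most respiratory chain genes lay slightly below the wildtype. The change was below 0 in 72 of the 80 genes (90%), against 46.8% of all 11037 genes, and its median was -0.15 on the log2 scale, 0.904 times the wildtype level, against 0.01 over all genes. Few single genes passed the test across the array (limma, Benjamini-Hochberg adjusted p under 0.05). Cox6a1, Cox7a2, Atp5l and Ndufa4 fell, which is 5% of the 80 genes beside 2.72% of all genes, and 0 rose, beside 2.22% of all genes. The other 76 did not pass. By probes, 7 of the 115 kept probes fell, beside 2.12% of all kept probes, and 0 rose, beside 1.85%. At an unadjusted p under 0.05, 28 of the 80 genes were lower and 0 higher, beside 9.75% and 9.4% of all genes.

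The groups did not overlap in 25 of the 80 genes, with every null array below every wildtype array (31.25%, beside 7.36% of all genes). In 0 genes was every null array above (beside 7.17%). The 80 genes were brighter than all genes (mean level 10.75 against 8.35 in wildtype replicate 1). Their arrays also scattered less (median SD within a group 0.10 against 0.14). The shares of all genes are thus not matched in level or scatter. For 74 of the 80 genes the 95% confidence interval of the change lay within a fold of 1.5 in either direction, beside 9346 of all 11037 genes. A change beyond that fold thus lay outside the interval in most genes, of the chain and of the array. These are samples of mixed cells, in which fewer cells of a type and less RNA per cell cannot be told apart. After the scale normalization that the study's methods name, in place of quantile normalization, the median was -0.11 against 0.04 over all genes. However, 0 genes passed (beside 0.63% of all genes lower) and 0 of the 80 did not overlap (beside 2.82% of all genes). Without null replicates 2 and 3 the median was -0.11, 64 genes were below 0 and 28 did not overlap (beside 17% of all genes). Only Atp5pb, the b subunit of ATP synthase, then passed (beside 3.23% of all genes lower). Leaving out null replicate 2, null replicate 3 or wildtype replicate 2 alone left 0 genes past the threshold. Leaving out any other single array left 1 to 3. In these fits without 1 array 1.76% to 2.28% of all genes were lower.

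**Figure D1:**
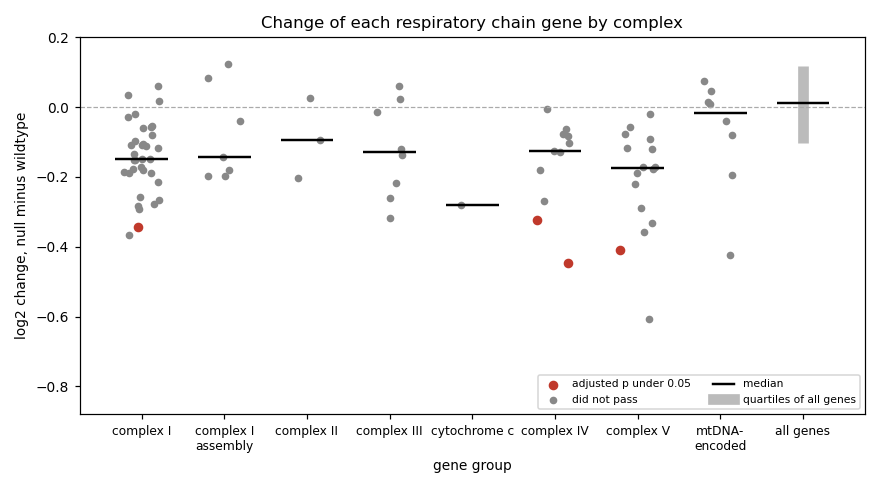
Log2 change (null minus wildtype, vertical axis) of each of the 80 genes by complex, of 8 subunits encoded by mitochondrial DNA, and of all 11037 genes. Points are genes, red where the adjusted p was under 0.05, black lines are medians, and the pale bar runs between the quartiles of all genes. The medians of complexes I, III, IV and V lie between -0.18 and -0.12, whereas those of the mitochondrially encoded subunits and of all genes lie at -0.02 and 0.01. Several mitochondrially encoded subunits are very bright, where a change can be flattened.

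On each array the mean over the 80 genes showed the same order. Relative to the wildtype mean it was -0.11, -0.19, -0.20 and -0.12 in null replicates 1 to 4, against 0.01, 0.01, -0.04 and 0.01 in wildtype replicates 1 to 4. The null arrays were thus all below the wildtype arrays, with null replicates 2 and 3 the lowest. The number of genes below their wildtype mean was 62, 76, 74 and 67 of 80 in null replicates 1 to 4. It was 34, 31, 55 and 38 in wildtype replicates 1 to 4, so wildtype replicate 3 came close to null replicate 1. Over all genes this share was 46.5% to 49.5% on the null arrays and 39.9% to 58.0% on the wildtype arrays. The mean level over all genes, relative to the wildtype mean, stayed between -0.02 and 0.01 on the 8 arrays. Quantile normalization gives all arrays the same distribution of intensities, so that mean could hardly differ and is no independent reference.

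**Figure D2:**
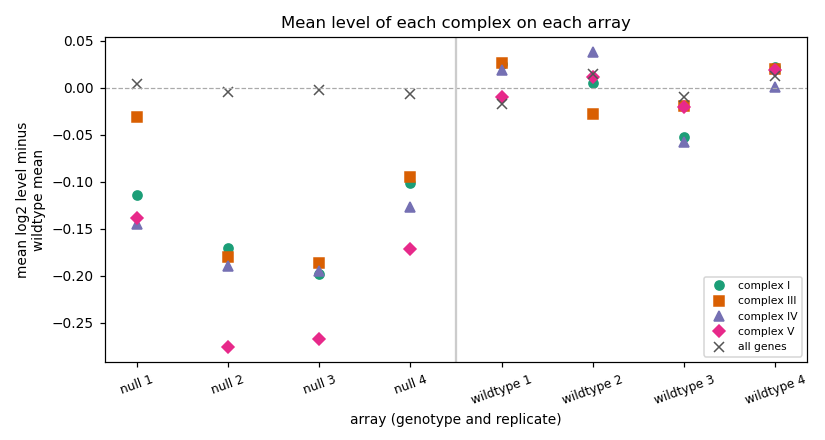
Mean log2 level of complexes I, III, IV and V and of all genes on each array, minus the mean of the 4 wildtype arrays (vertical axis), with the null arrays on the left. Complexes I, IV and V lie below -0.10 on every null array and between -0.06 and 0.04 on the wildtype arrays. Complex III of null replicate 1 lies at -0.03. All genes lie near 0, where quantile normalization holds them.

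Promoters of the chain genes were searched for short sequence motifs, which the choice of genes did not use. Nuclear respiratory factor 1 (NRF1), a regulator of many genes of the chain, is known to recognise a palindrome-like GC-rich site. Promoter windows (RefSeq, GRCm38.p6, 250 bases before to 50 after the start) were at hand for 73 of the 89 genes. The letters GCGCANGCGC were searched on both strands, and a gene counted if any of its windows held them. They occurred in 18 of the 73 genes (24.7%). The share was 11.3% among all genes with a kept probe and a window, and 5.19% among all 27025 genes with a window. These reference genes were not matched for GC content. The following stretches of 30 bases lie before the start of Cox6a1, the gene with the lowest adjusted p, of Ndufa11, which had the lowest change of complex I, and of Atp5g2, a gene of the membrane ring of ATP synthase. They run 5′ to 3′ on the strand of the gene, with the matched letters in capitals.
Cox6a1, chr5:115349101-115349130, minus strand, match 162 bases before the start: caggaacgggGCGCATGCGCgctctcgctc
Cox6a1, chr5:115349056-115349085, minus strand, match 117 bases before the start: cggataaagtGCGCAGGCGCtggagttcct
Ndufa11, chr17:56717692-56717721, plus strand, match 60 bases before the start: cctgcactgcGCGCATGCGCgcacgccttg
Atp5g2, chr15:102671070-102671099, minus strand, match 42 bases before the start: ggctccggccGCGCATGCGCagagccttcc

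The 17 kept genes with these letters had a median change of -0.19, and 16 of them were below 0. The 52 kept genes whose window lacked the letters had a median of -0.13, with 47 below 0, so genes with and without the letters lay on the same side. Among the 5 genes with a probe past the threshold only Cox6a1 held them. The letters AAGATGGCG, a site of the factor YY1, occurred in 8 of the 73 genes (11%), against 3.47% of kept genes with a window. The ETS site CCGGAAGT occurred in 4 (5.48%), against 9.02%. These motifs overlapped none of the NRF1 letters printed above. Of the factors themselves, Nrf1 had a change of -0.05 ± 0.10 (SE), Yy1 of 0.08 ± 0.16 and Gabpa, an ETS factor, of -0.20 ± 0.14, and none passed the test (limma, adjusted p between 0.53 and 0.87).

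Complex I pumps protons with electrons from NADH. It gave 34 kept genes of 36, with a median of -0.15. Of these 1 fell (2.94%, near the 2.72% of all genes). A change below 0 was found in 31 (91.2%, beside 46.8% of all genes), and 11 did not overlap between the groups (32.35%, beside 7.36%). The gene that fell was Ndufa4, first described as a complex I protein and now counted as a subunit of complex IV. Its level was 11.34, 11.28, 11.21 and 11.48 in null replicates 1 to 4, against 11.67, 11.68, 11.68 and 11.65 in wildtype replicates 1 to 4. The wildtype arrays hardly differed among themselves, and every null array lay below them (change -0.34 ± 0.08 SE, limma adjusted p = 0.042).

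Ndufa11, an accessory subunit of the membrane arm, had the lowest change of the complex without passing the test. It read 9.70, 9.71, 9.66 and 9.83 in the null, against 10.00, 10.22, 9.93 and 10.21 in the wildtype (change -0.37 ± 0.09 SE, limma adjusted p = 0.060). The groups were again apart. Among further accessory subunits whose groups did not overlap, chosen after their values were seen, Ndufa3 had a change of -0.28 ± 0.07, Ndufb2 of -0.26 ± 0.07 and Ndufc1 of -0.27 ± 0.08 (SE).

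The core subunits of complex I, most of which carry flavin or iron-sulfur clusters, gave 0 genes that passed. Ndufv1, which binds NADH, read 11.92, 11.80, 11.73 and 11.86 in the null, against 11.76, 11.85, 11.71 and 11.85 in the wildtype, so the groups overlapped fully (change 0.03, 95% confidence interval -0.14 to 0.21). Ndufs7 had a change of 0.02 (interval -0.14 to 0.18), Ndufs8 of -0.11 (-0.29 to 0.07) and Ndufs3, a core subunit of the matrix arm, of -0.15 (-0.34 to 0.04). Ndufa10 had the highest change of the complex at 0.06 (-0.20 to 0.32). Probes of Ndufs4 spread most among the genes with several kept probes, with changes from -0.31 to -0.06, all 4 below 0.

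The assembly factors of complex I gave 7 kept genes, of which 0 passed, 5 were below 0 and none was free of overlap. Over all genes 2.72% were called lower, 46.8% lay below 0 and 7.36% did not overlap with the null lower. Ndufaf3 and Ndufaf4, which act together early in assembly, both had a change of -0.20, and Ndufaf1 had the highest change of all 80 genes at 0.12 ± 0.08 (SE). Ndufaf7, a mitochondrial methyltransferase, stood at 0.08 ± 0.14. In complex II, which is also an enzyme of the tricarboxylic acid cycle, 3 of 4 genes were kept and 0 passed. Sdhd, a membrane anchor, read 10.42, 10.43, 10.44 and 10.24 in the null, against 10.63, 10.50, 10.57 and 10.64 in the wildtype, so the groups did not overlap although the test was not passed (change -0.20 ± 0.08 SE, limma adjusted p = 0.21). The other anchor, Sdhc, had a change of 0.02 ± 0.09 and the iron-sulfur subunit Sdhb of -0.10 ± 0.09.

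Complex III gave 8 kept genes of 8, with a median of -0.13. Of these 6 were below 0 (75%, beside 46.8% of all genes) and 2 did not overlap (25%, beside 7.36%). By their brightest probes 0 passed (beside 2.72% of all genes lower). The small accessory subunit Uqcr10 was split between its probes. Its dimmer probe fell, at 12.30, 12.19, 12.09 and 12.18 in the null, against 12.45, 12.52, 12.51 and 12.58 in the wildtype (change -0.32 ± 0.07 SE, limma adjusted p = 0.044). Its brighter probe also kept the groups apart, but the change of -0.26 ± 0.09 did not pass (adjusted p = 0.18). Uqcr11, another small subunit, had the lowest change of the complex at -0.32 ± 0.10.

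The large core proteins of complex III, Uqcrc1 and Uqcrc2, had changes of 0.06 (95% confidence interval -0.16 to 0.28) and -0.01 (-0.18 to 0.16). Cyc1, the cytochrome c1 subunit, stood at -0.14 (-0.33 to 0.05), Uqcrq at 0.02 (-0.22 to 0.27) and the iron-sulfur protein Uqcrfs1 at -0.12 (-0.38 to 0.14). The kept probe of Uqcrfs1 was dim (mean 4.93 in the null and 5.05 in the wildtype). It was above background on only 1 null and 3 wildtype arrays, so its change says little. Cycs, the mobile carrier between complexes III and IV, read 9.84, 10.08, 10.06 and 10.09 in the null, against 10.33, 10.44, 10.29 and 10.11 in the wildtype. Its groups did not overlap, although wildtype replicate 4 came close to the null (change -0.28 ± 0.10 SE, limma adjusted p = 0.16).

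By symbol, complex IV held 2 of the 4 genes that fell, beside Ndufa4, which was counted under complex I. All 11 kept genes of 16 had a change below 0, and the 2 that fell were 18.2% of them (beside 2.72% of all genes). The groups did not overlap in 5 of the 11 (45.45%, beside 7.36% of all genes). The median was -0.12, but -0.07 without null replicates 2 and 3 and -0.08 under scale normalization. Cox6a1 encodes the broadly expressed form of subunit 6A, whose promoter held the first pair of sequences above. It read 10.74, 10.87, 10.80 and 11.02 in the null, against 11.30, 11.39, 11.25 and 11.28 in the wildtype, a gap of the groups on every array (change -0.45 ± 0.08 SE, 95% confidence interval -0.63 to -0.26, limma adjusted p = 0.017). A dimmer probe of Cox6a1 gave -0.40 ± 0.07 (adjusted p = 0.017).

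Cox7a2, the broadly expressed form of subunit 7A, also fell. It read 9.69, 9.74, 9.76 and 9.80 in the null, against 10.16, 10.06, 10.07 and 10.00 in the wildtype (change -0.32 ± 0.07 SE, limma adjusted p = 0.035). The null arrays lay close together below all wildtype arrays. Cox7a2l, which helps to join complexes III and IV, had a change of -0.13 ± 0.07 and did not pass. Cox4i1, the main form of subunit 4, stood at -0.06 (95% confidence interval -0.22 to 0.10), Cox6b1 at -0.08 (-0.27 to 0.11), Cox7b at -0.08 (-0.30 to 0.15) and Cox6b2, known from testis, at -0.10 (-0.38 to 0.18).

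**Figure D3:**
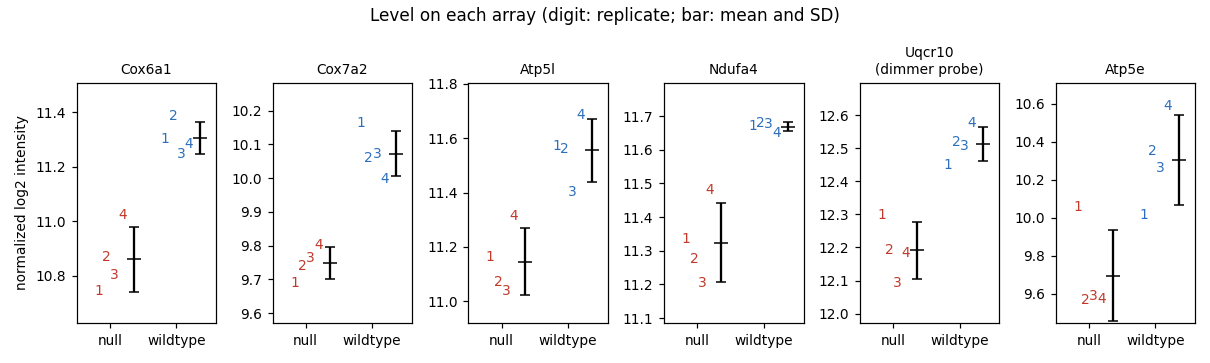
Normalized log2 intensity (vertical axis) on each array for the 4 genes that fell, the dimmer probe of Uqcr10 and Atp5e, null on the left and wildtype on the right of each panel. Digits are replicates, and bars give the mean and SD of 4 arrays. The groups do not overlap in Cox6a1, Cox7a2, Atp5l, Ndufa4 and Uqcr10, whereas null replicate 1 of Atp5e (10.05) lies above wildtype replicate 1 (10.01).

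Several subunits of complex IV have a form that is used in heart and skeletal muscle. Of these Cox6a2 and Cox8b were not above background on any array, so their values there have only a bound. Cox7a1 was kept and had a change of -0.01 ± 0.14 (SE), at 6.26, 6.14, 6.20 and 6.19 in the null and 6.19, 6.59, 5.82 and 6.22 in the wildtype. Its groups overlapped.

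In complex V all 16 genes were kept and all 16 had a change below 0, with a median of -0.18. Of these 1 fell (6.25%, beside 2.72% of all genes) and 5 did not overlap (31.25%, beside 7.36%). Atp5l, the g subunit of the membrane part, read 11.16, 11.07, 11.04 and 11.31 in the null, against 11.57, 11.56, 11.40 and 11.68 in the wildtype (change -0.41 ± 0.09 SE, limma adjusted p = 0.039). Its second kept probe gave -0.38 ± 0.08 (adjusted p = 0.027). Both probes kept the null arrays below the wildtype arrays.

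Atp5e, the epsilon subunit of the rotor stalk, had the lowest change of all 80 genes and just missed the threshold. It read 10.05, 9.57, 9.59 and 9.58 in the null, against 10.01, 10.35, 10.26 and 10.59 in the wildtype (change -0.61 ± 0.15 SE, limma adjusted p = 0.056). Null replicate 1 stood with the lowest wildtype array, and without it the change was -0.73 and passed (adjusted p = 0.022). It also passed without wildtype replicate 1 (-0.70, adjusted p = 0.042). Without any other single array Atp5e did not pass (limma adjusted p between 0.10 and 0.14), nor without null replicates 2 and 3 (-0.49, adjusted p = 0.17).

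The subunits of the catalytic head of ATP synthase did not pass. Atp5b, the beta subunit, read 13.72, 13.69, 13.76 and 13.74 in the null, against 13.72, 13.87, 13.73 and 13.81 in the wildtype (change -0.06, 95% confidence interval -0.21 to 0.10). Atp5a1, the alpha subunit, had a change of -0.02 (-0.20 to 0.15) and Atp5c1, the gamma subunit, of -0.12 (-0.28 to 0.04). The groups overlapped in Atp5a1 and Atp5b but not in Atp5c1. The genes of the c subunit, which forms the ring of the rotor, stood at -0.17 (-0.37 to 0.03) for Atp5g2 and -0.08 (-0.24 to 0.08) for Atp5g3.

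Without null replicates 2 and 3 the genes that fell kept their direction but not their call, with changes of -0.42 for Cox6a1, -0.33 for Cox7a2, -0.32 for Atp5l and -0.26 for Ndufa4 (limma adjusted p between 0.070 and 0.16).

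Of 27 genes with more than 1 kept probe, 24 had all probes below 0, 0 had all above and 3 were mixed, namely Atp5a1, Atp5j and Atp5mpl.

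**Figure D4:**
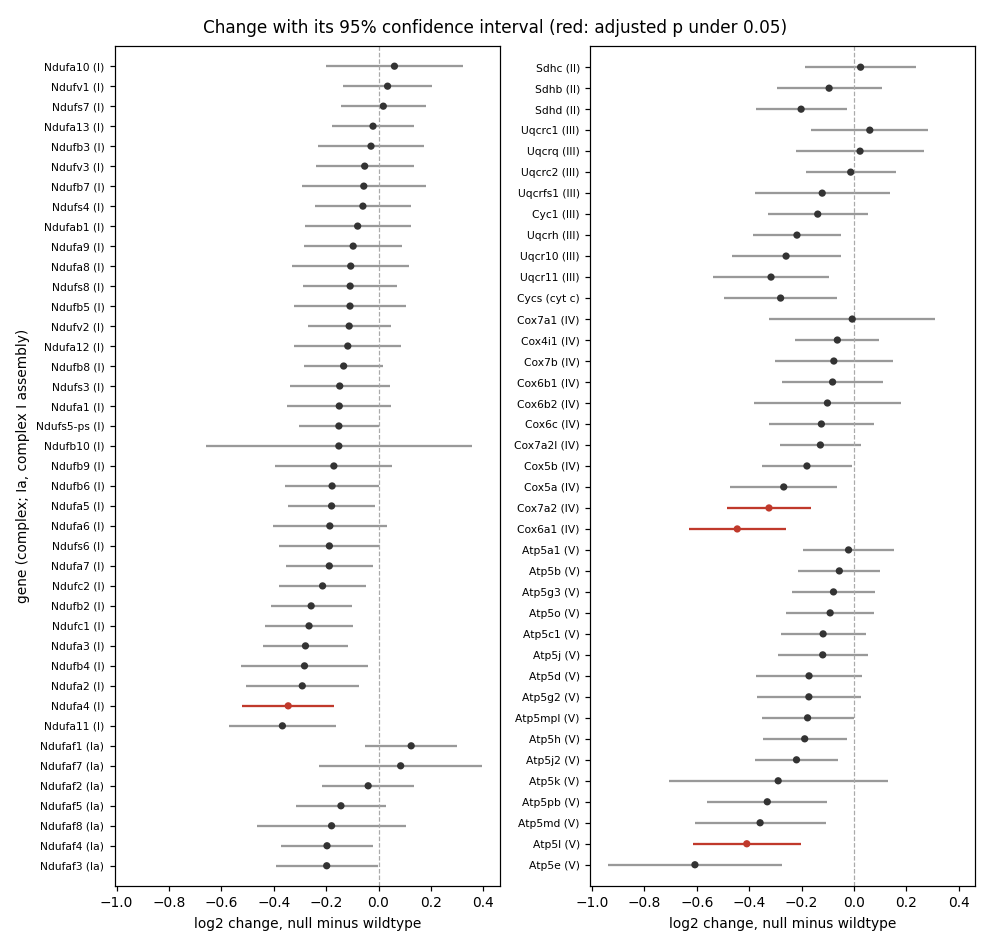
Log2 change (null minus wildtype, horizontal axis) of all 80 kept genes, each with its 95% confidence interval, by complex. Complex I and its assembly factors are on the left and the other complexes on the right, with the 4 genes that fell in red. Points lie between -0.61 (Atp5e) and 0.12 (Ndufaf1), and 28 intervals lie wholly below 0.

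Other genes of mitochondrial metabolism served for comparison. Of the subunits that mitochondrial DNA encodes, 8 were found by symbol and kept, 0 passed, 4 were below 0 and the median was -0.02. ND1, ND4, CYTB, COX2 and ATP6 were very bright, with null means of 14.09 to 15.21. ND4 and CYTB repeated identical values on several arrays, as quantile normalization by rank gives among the brightest probes. A change can be flattened there, so the median of the 8 may understate it, which was not tested. Among the dimmer subunits, ND5 (null mean 6.86) had a change of 0.01 ± 0.11 and ND6 (null mean 8.80) of -0.19 ± 0.17 (SE). CYTB of complex III had a change of 0.07 ± 0.08 (SE), COX2 of complex IV of -0.08 ± 0.08, ATP6 of complex V of 0.01 ± 0.09, and ND4L of complex I, whose arrays scattered widely, of -0.42 ± 0.25. Of 36 kept assembly and inhibitor factors outside the symbol rule 0 passed, with a median of 0.003. The 72 kept genes of the mitochondrial ribosome had a median of -0.02, with 45 below 0 (62.5%, beside 46.8% of all genes) and 0 that passed.

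Of 17 kept genes of the tricarboxylic acid cycle and pyruvate dehydrogenase 1 fell (5.88%, beside 2.72% of all genes), with a median of -0.03. This was Pdhb, a subunit of the enzyme that feeds acetyl-CoA into the cycle, at 9.17, 9.41, 9.41 and 9.34 in the null, against 9.71, 9.73, 9.68 and 9.71 in the wildtype (change -0.37 ± 0.08 SE, limma adjusted p = 0.028). The null arrays were all lower. Of 15 kept carriers, channels and kinases and of 20 regulators of mitochondrial biogenesis 0 passed, with medians of 0.02 and -0.01. The coactivators Ppargc1a and Ppargc1b, chosen after their values were seen, had changes of -0.36 ± 0.13 and -0.42 ± 0.15 and did not pass (limma adjusted p = 0.18 and 0.17).

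The markers of other cell types moved with the genotype beside these results. The summed linear intensity of the kept muscle markers was 1523 to 1844 in the null, against 2354 to 2778 in the wildtype, that of the macrophage markers 132 to 154 against 519 to 862, and that of the platelet markers 522 to 2370 against 8154 to 14860. The kept endothelial markers summed to 411 to 452 in the null, against 512 to 634 in the wildtype, with 2 of 4 lower. Ptprc among the macrophage markers and Kdr among the endothelial markers were not above background on any array. Of the other lists, 0 of 2 kept erythroid, 0 of 2 epithelial, 0 of 4 cartilage and 0 of 5 mesenchyme markers passed, and Stmn2, 1 of 2 kept neuronal markers, was higher. All 4 cartilage markers had a change above 0, however. Their mean log2 level was 10.97 to 11.08 on the null arrays, against 10.78 to 10.95 on the wildtype arrays. Whether the cells of these lists have a part in the lower levels of the respiratory chain genes was not tested.

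**Figure D5:**
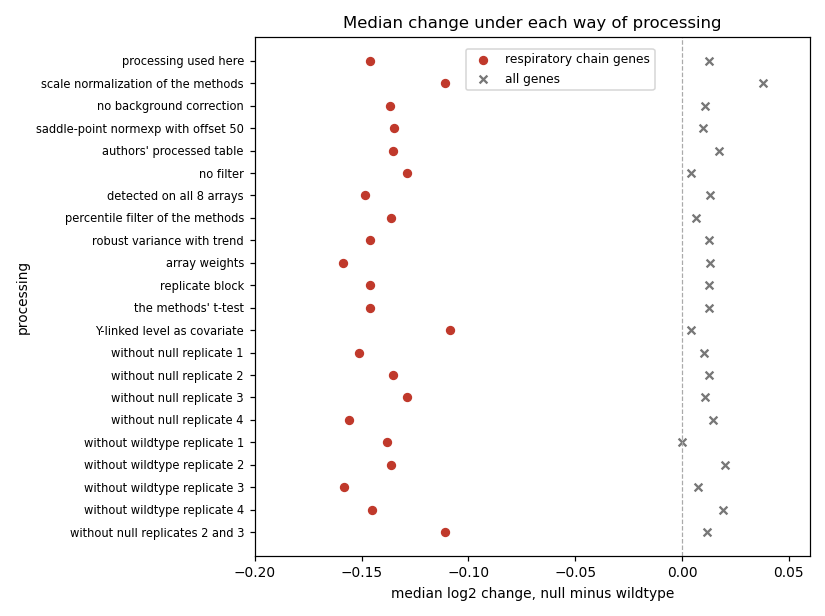
Median log2 change (null minus wildtype, horizontal axis) of the respiratory chain genes (circles) and of all genes (crosses) under the processing used here and 21 others, 1 per line. The circles lie between -0.16 and -0.11 and the crosses between 0 and 0.04.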

How the data were processed

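Total RNA of 8 sorted forelimb samples was measured on Illumina mouse arrays, and the methods call the replicates biological. The authors deposited a linear intensity for each probe. Beside it stands a deposited detection value, a fraction that runs up to 1 and grows with brightness, so that the detection p was taken as its complement. A further table that the authors deposited holds log2 values scaled by array, with a baseline per probe that is not known. The labels name GenomeStudio, with no version given in the sources used here. Each of the 45281 rows of the first table matched exactly 1 row of the second by its pattern over the arrays (tolerance 1e-05 on the log2 scale). The platform annotation gives 1 gene for 34885 probes, several for 18 and none here for 10378.

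Background correction used the nec function (limma 3.58.1, R 4.3.3) with an offset of 16, and quantile normalization and log2 followed. The filter left 20593 probes, and each gene was represented by its brightest kept probe over the 8 arrays (11037 genes). Genotypes were compared with lmFit and eBayes, two-sided, with Benjamini-Hochberg adjustment over all kept probes and a threshold of 0.05. The number of arrays limits the precision. In simulated arrays for this comparison (20606 probes), 28 of 100 probes with a true fold of 1.5 and 82 of 100 with a true fold of 2 passed, and 8 of 118 calls were false. The changed probes were bright and above background on all 8 arrays, and the noise was drawn independently for each probe. Both folds were larger than the median change of the respiratory chain genes, so these counts do not describe changes of that size. Alternatives covered the scaling, background, filter, variance model, array weights, replicate block, the methods' variance test per probe (for 2 groups an equal-variance t-test, called the methods' t-test), a Y-linked covariate, the mean of a gene's probes and leaving out arrays.

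The members and lists were chosen with earlier results of these data known. Genes are named by a rule: members with a probe past the threshold, the 2 highest and 2 lowest of each complex, a set of core subunits, isoform sets, and up to 3 members past the threshold in each other list. Names outside it were chosen after their values were seen. The isoforms Cox8a, Atp5g1 and Ndufa4l2 were not analysed here.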

Additional observations from a re-analysis of the deposited data

Results flagged for a closer look

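Of 92 groups of 4 arrays examined for a single array far from the other 3 (named genes and complex means), 10 had one, and chance gives about 5% of groups. In the null, replicate 1 stood high in Atp5e (10.055, the others 9.57 to 9.59) and Atp5g2 (10.309, the others 10.13 to 10.15) and low in Cycs (9.8352, the others 10.06 to 10.09), and replicate 4 stood high in Cyc1 (10.148, the others 9.99 to 10.01) and low in Sdhd (10.243, the others 10.42 to 10.44). In the wildtype, replicate 4 stood low in Atp5g3 (14.047, the others 14.21) and Ndufaf4 (9.4787, the others 9.63 to 9.65) and high in the dimmer probe of Atp5l (8.3575, the others 8.13 to 8.17). Wildtype replicate 3 stood low in the mean over all 80 respiratory chain genes (10.695, the others 10.75), and wildtype replicate 1 stood high in the mean of complex II (10.544, the others 10.47 to 10.48). The dropped probe of Sdha, the catalytic subunit of complex II, was above background on 2 null arrays and on 0 wildtype arrays.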

How the results depend on the processing

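The change of each of the 7 probes past the threshold kept its direction under all 21 alternatives that were fitted, but all 7 lost the call under scale normalization, in the authors' processed table, with a replicate block, with the Y-linked level as a covariate, and without null replicate 2, null replicate 3, both of these, or wildtype replicate 2. The number of respiratory chain genes lower in the null was 4, given here with the share of all genes lower (2.72%). It was 0 under scale normalization (0.63%), 1 in the authors' processed table (Atp5e, 1.27%) and 8 without background correction (2.88%). It was 9 with saddle-point normexp (3%), 10 with a robust variance trend (3.1%) and 18 with array weights (5.52%). It was 1 with the Y-linked covariate (Atp5pb, 4.25%) and 1 without null replicates 2 and 3 (Atp5pb, 3.23%). Leaving out 1 array gave 0 to 3 (1.76% to 2.28%). In all of these 0 were higher. The number without overlap was 25 (beside 7.36% of all genes), but 0 under scale normalization (2.82%) and 14 in the authors' processed table (4.34%). It was 25 to 33 without 1 array (8.21% to 9.82%). The median change of the 80 genes stayed between -0.16 and -0.11, and 64 to 76 genes were below 0. The median of every complex stayed below 0 under these alternatives. It moved by over 1.5 times in complex IV (-0.12, but -0.08 under scale normalization and -0.07 without null replicates 2 and 3), in complex V with the Y-linked covariate (-0.18, but -0.11), in the 7 assembly factors (-0.14, but -0.09 under scale normalization, -0.07 without null replicates 2 and 3 and -0.03 with the covariate) and in the 3 genes of complex II (-0.10, between -0.16 and -0.03). Over all genes 300 were lower and 245 higher, but 69 and 22 under scale normalization. In the neighbouring lists together, 1 gene was lower (Pdhb). There were 0 under scale normalization and in the authors' table, 2 without background correction, with saddle-point normexp, without a filter, with a robust trend and with the methods' t-test, 8 with array weights, 4 with the Y-linked covariate and 4 without null replicates 2 and 3, and 0 to 1 without 1 array, and 1 was higher with array weights and with the covariate. The cause of these differences was not tested.

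With the replicate number as a replicate block 0 respiratory chain genes and 0 genes of the other lists were lower, beside 1.64% of all genes. The numbers did not pair the samples: deviations of same-numbered arrays correlated at 0.06, 0.24, -0.18 and -0.26, and 1 of 8 arrays correlated best with its own number. Dim probes limit what can be said of the 9 genes without a kept probe.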
